A study of Mus musculus with 12 samples.

Results

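SR proteins and heterogeneous nuclear ribonucleoproteins (hnRNPs) were described in fat tissue and cultured adipocytes from mice with a knockout of Xap5, the nuclear protein that the mouse gene Fam50a encodes. The genes were taken by symbol, as every Srsf gene with a plain number and every gene whose symbol starts with Hnrnp, without pseudogenes or numbered copies of a symbol. This gave 31 genes in all, 11 Srsf and 20 Hnrnp genes, of 21669 symbols listed for both tissue and culture. Left out were 4 numbered copies (Hnrnpu-2, Srsf1-2, Srsf1-3 and Srsf3-2), which are listed for tissue only, and 1 pseudogene. Of the 31 genes, 30 passed the filter on low counts in tissue and in culture. Srsf12 did not, with 4, 2 and 14 reads in knockout tissue, against 5, 10 and 0 reads in wild-type tissue, and 0 reads in all 6 culture libraries.

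SR proteins carry a single RNA recognition motif or a pair, and a domain rich in arginine and serine. They bind exonic splicing enhancers and help recruit the spliceosome, and kinases of the SRPK and CLK families phosphorylate their arginine and serine repeats. The hnRNPs coat nascent transcripts, and many of them bind splicing silencers or intronic elements, so both groups often act on the same exon in opposite ways. Both groups are broadly expressed, and several members limit their own level through alternative exons that lead to decay of the transcript. Xap5 itself has been found with proteins of the spliceosome.

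Messenger RNA was sequenced in 4 groups of 3 libraries. White adipose tissue (WAT) at postnatal day 42 came from conditional knockout (cKO) mice, in which a Cre recombinase under the adiponectin promoter deletes Xap5 in mature adipocytes, and from wild-type (WT) mice. Adipocytes at day 8 of adipogenic induction were differentiated from pre-adipocytes of white fat of newborn cKO mice (KO cultures) and of WT mice. The promoter is active in differentiated adipocytes, so other cells of the tissue and undifferentiated cells of the cultures keep Xap5. The labels do not say whether each library had an animal or a culture of its own, so the spread behind the p-values is that between these libraries and may be technical.

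Total counts were 33132906 to 33997204 in cKO WAT, 28844370 to 30704234 in WT WAT, 10863158 to 21773610 in KO cultures and 11601138 to 12401278 in WT cultures. Fam50a was at 23.3, 16.8 and 28.9 CPM in cKO WAT, against 35.3, 32.5 and 36.5 CPM in WT WAT (log2 fold change -0.60, SE 0.20, edgeR adjusted p = 0.0395). CPM give a gene's counts relative to the total of its library, here with libraries scaled by edgeR's trimmed-mean method (TMM). With library size as the only scaling the change of Fam50a was 0.089 (adjusted p = 0.736), and it did not pass with the length and GC trend removed or without 1 of 4 single libraries (cKO replicate 1 or any WT replicate, adjusted p from 0.0756 to 0.108). The KO cultures had 46.2, 42.9 and 41.1 CPM of Fam50a, against 57.9, 52.0 and 45.2 CPM in WT cultures (-0.26, SE 0.12, adjusted p = 0.134), so the groups overlapped, and with the trend removed it passed (-0.30, adjusted p = 0.0187). Levels of cell type markers moved with the genotype in tissue. In cKO WAT 11 of 12 adipocyte markers fell, and 9 of 10 macrophage, 6 of 9 fibroblast and all 12 cell division markers rose. Of all genes tested in cKO WAT against WT WAT, 28.2% were called higher and 24.2% lower. Of 7 endothelial markers 5 fell and 1 rose there (1 fell and 1 rose with library size only), and none of the 6 skeletal muscle markers passed, although they summed to 1239 CPM in cKO replicate 1 and 1658 CPM in WT replicate 3, against 32.0 to 241 CPM in the other 4 tissue libraries. Summed macrophage markers were at 1951 to 4158 CPM in cKO WAT and 366 to 567 CPM in WT WAT, and summed cell division markers at 206 to 376 CPM in cKO WAT and 87.7 to 96.5 CPM in WT WAT. Epithelial markers summed to 640 CPM in cKO replicate 3 and to at most 28.8 CPM in the other 5 tissue libraries. The cultures expressed Adipoq at 2662 to 3036 CPM in KO and 1967 to 2118 CPM in WT, while Lep was at most at 0.396 CPM in any culture library. They also held macrophage markers, which summed to 2159.6 to 2536 CPM in KO and 3048 to 3345 CPM in WT cultures.

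The promoters of 4 members are printed because their genes behaved differently: Hnrnpa1 and Hnrnpdl rose in tissue and in culture, Hnrnpa0 rose in tissue and fell in culture, and Hnrnpl passed the test in neither. Each run is 300 bases of the coding strand around a transcript start, from 250 bases before it to 50 bases after it, as RefSeq's promoter table on GRCm38.p6 gives it. The start used for Hnrnpa0 is the outer end of the gene, while for Hnrnpa1, Hnrnpdl and Hnrnpl the window lies inside the gene's full RefSeq span, whose outermost models begin further upstream. Capitals mark matches on either strand to a CCAAT box (CCAAT, or ATTGG on the other strand) and a GC box (GGGCGG, or CCGCCC on the other strand). No match overlapped another in these 4 windows. They lie at chr13:58128507-58128806 (minus strand), chr15:103240147-103240446 (plus), chr5:100039173-100039472 (minus) and chr7:28810640-28810939 (plus).
Hnrnpa0: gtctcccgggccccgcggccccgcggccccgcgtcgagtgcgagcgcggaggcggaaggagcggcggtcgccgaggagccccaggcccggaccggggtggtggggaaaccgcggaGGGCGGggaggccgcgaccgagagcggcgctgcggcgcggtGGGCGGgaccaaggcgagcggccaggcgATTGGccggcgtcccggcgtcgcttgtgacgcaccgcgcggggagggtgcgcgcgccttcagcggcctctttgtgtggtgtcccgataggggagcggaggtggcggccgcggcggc
Hnrnpa1: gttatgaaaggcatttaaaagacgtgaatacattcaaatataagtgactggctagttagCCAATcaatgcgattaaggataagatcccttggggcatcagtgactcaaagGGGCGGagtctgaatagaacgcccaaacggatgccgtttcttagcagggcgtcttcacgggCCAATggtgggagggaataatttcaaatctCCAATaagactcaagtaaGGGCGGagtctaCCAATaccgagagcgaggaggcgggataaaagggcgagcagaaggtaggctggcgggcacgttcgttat
Hnrnpdl: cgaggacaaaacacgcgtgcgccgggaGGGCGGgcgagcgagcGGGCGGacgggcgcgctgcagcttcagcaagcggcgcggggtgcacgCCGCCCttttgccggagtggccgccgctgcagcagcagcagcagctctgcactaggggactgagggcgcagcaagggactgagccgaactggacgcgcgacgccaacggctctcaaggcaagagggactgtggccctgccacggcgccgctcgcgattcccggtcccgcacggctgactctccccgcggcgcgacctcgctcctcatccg
Hnrnpl: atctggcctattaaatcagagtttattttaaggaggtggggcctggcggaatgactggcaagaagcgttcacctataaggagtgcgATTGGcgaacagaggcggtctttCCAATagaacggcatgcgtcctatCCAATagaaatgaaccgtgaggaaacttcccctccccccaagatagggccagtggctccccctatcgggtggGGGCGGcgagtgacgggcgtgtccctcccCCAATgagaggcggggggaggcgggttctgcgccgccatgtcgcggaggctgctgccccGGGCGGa

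Hnrnpa1 and Hnrnpl each held 4 CCAAT boxes and 2 GC boxes in these windows, Hnrnpa0 held 1 CCAAT box and 2 GC boxes, and Hnrnpdl held 3 GC boxes and no CCAAT box. Over the 29 members with a window, a GC box was present in 79.3%, against 35.9% of 27018 windows of all genes. A CCAAT box was in 55.2% of the members' windows, against 37.9% of all. The motif CCGGAAG, bound by ETS factors, was in 20.7% of the members' windows, against 9.12% of all, and TATAAA in 13.8%, against 14.2%. The median GC content was 68.3% in the members' windows, against 52.7% in all, and the median number of CpG dinucleotides was 31 in the members' windows, against 7 in all. The windows of all genes differ in base composition from those of the members, and a match describes these letters and no binding.

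Per transcript length, the members spanned a wide range in every group. Levels per length are given as TPM, which sum to the same total in each library, computed within each count table from the length of a principal transcript. TPM carry no TMM factors, which averaged 1.27 in cKO WAT and 0.790 in WT WAT. They order members within a group, and a gene's TPM in cKO and WT are not on the scale of the tests below. Hnrnpa2b1, which binds splicing silencers and reads methylated adenosines, was the most abundant member in cKO WAT, at 393 ± 13.1 TPM, and ranked 4 in WT WAT, at 129 ± 35.7 TPM (SD, n = 3 each). It was also first in culture, at 792 ± 55.2 TPM in KO and 729 ± 51.2 TPM in WT cultures. Srsf2, an SR protein that marks nuclear speckles, was at 359 ± 60.1 TPM in cKO WAT and 177 ± 14.7 TPM in WT WAT. It was first by mean in WT WAT, where its range did not overlap that of the next member, Hnrnpab. Srsf2 did overlap Hnrnpa2b1 in WT WAT, since WT replicate 1 held 165 TPM of Hnrnpa2b1 and 162 TPM of Srsf2. The range of Srsf2 in cKO WAT overlapped that of Hnrnpa2b1 too.

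Below them, Hnrnpk, which binds cytosine tracts through KH domains, was at 308 ± 25.1 TPM in cKO WAT and 133 ± 16.9 TPM in WT WAT. Hnrnpab was at 257 ± 32.1 TPM in cKO WAT and 133 ± 1.27 TPM in WT WAT. In WT WAT these ranges overlapped each other and that of Hnrnpa2b1, and in cKO WAT each range overlapped that of its neighbour. In culture Hnrnpab followed Hnrnpa2b1, at 392 ± 11.0 TPM in KO and 425 ± 11.7 TPM in WT, and Srsf5 came next, at 389 ± 19.6 TPM in KO and 350 ± 38.8 TPM in WT. Hnrnpa2b1 stood clear of the next member in both culture groups.

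Srsf12 was the least abundant member in every group. Above it in tissue stood Hnrnpd in cKO WAT, at 15.6 ± 1.42 TPM, and Hnrnpu in WT WAT, at 5.65 ± 1.73 TPM. In culture this place was taken by Hnrnpa3, at 15.1 ± 9.01 TPM in KO and 9.21 ± 2.99 TPM in WT. Levels were not compared between tissue and culture, since the tables list different features. Hnrnpa1 and several other members have processed copies elsewhere in the genome, and the sources used here do not give how reads that match more than 1 place or overlapping genes were counted. Reads of Hnrnpu, Srsf1 and Srsf3 are divided over numbered copies in the tissue table, and Hnrnpa3 had 2836 to 3081 reads in cKO WAT and 699 to 831 reads in WT WAT, but 49 to 326 reads in KO cultures and 40 to 79 reads in WT cultures.

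**Figure D1:**
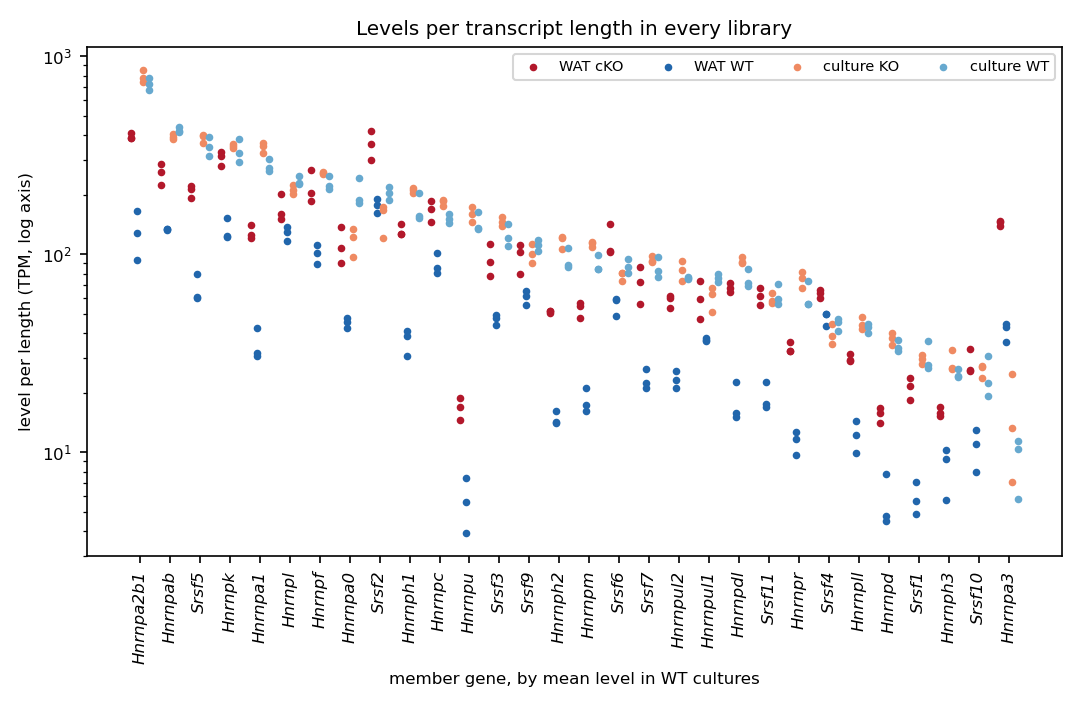
Level per transcript length of 30 members (Srsf12 is left out) in each of the 12 libraries, in TPM on a log axis, with genes ordered by their mean in WT cultures. TPM carry no TMM factors, so knockout and WT points are not on the scale of the tests. Each point is 1 library, coloured by group; Hnrnpa2b1 stands at the top in both culture groups, and Hnrnpa3 is at 15.1 TPM in KO and 9.21 TPM in WT cultures on average, and at 144 TPM in cKO WAT and 41.2 TPM in WT WAT.

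In WAT most members were higher in the knockout. Of 30 members tested, 19 rose in cKO WAT, 0 fell and 11 did not pass the test (edgeR quasi-likelihood test, Benjamini-Hochberg adjusted p under 0.05 over all genes). Over all 16293 genes tested 28.2% were called higher and 24.2% lower. At an unadjusted p under 0.05, 20 members were higher and 1, Srsf4, was lower. DESeq2 called 19 higher and 2 lower, and limma voom 19 and 0. The median log2 fold change of the members was 0.65, against 0.12 over all genes. Of the hnRNP genes 14 of 20 rose and of the SR genes 5 of 10. In 23 members every cKO library was above every WT library, against 35.1% of all genes, and in 1 member every cKO library was below, against 29.3%. The members took 0.406% to 0.475% of the counts in cKO libraries and 0.183% to 0.204% in WT libraries. In bulk tissue a change in the mix of cells and a change of RNA per cell cannot be told apart, and the part that macrophages, fibroblasts and dividing cells had in these values was not tested.

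The calls depended on how libraries were scaled. With library size only, all 30 members tested rose, where 54.2% of all genes were called higher and 8.76% lower, and the median over all genes was 0.80. With a trend in transcript length and GC content removed from each library, 8 members rose and 3 fell, where 18.4% of all genes were called higher and 28.5% lower, and the median over all genes was -0.10. Relative to that median, the members' median lay 0.53 higher with TMM and with library size, and 0.19 higher with the trend removed. Of the 19 members called with TMM, 13 were positive under all 3 scalings, and 6 (Srsf7, Hnrnpu, Hnrnpd, Srsf10, Hnrnpll and Hnrnpk) turned negative with the trend removed without passing the test. The 7 members called higher with TMM and with the trend removed were Hnrnpdl, Hnrnpa1, Hnrnph1, Hnrnpa3, Hnrnpr, Hnrnpm and Hnrnpa0, and none of them is an SR gene. Rises given for WAT members below are on the TMM scale.

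**Figure D2:**
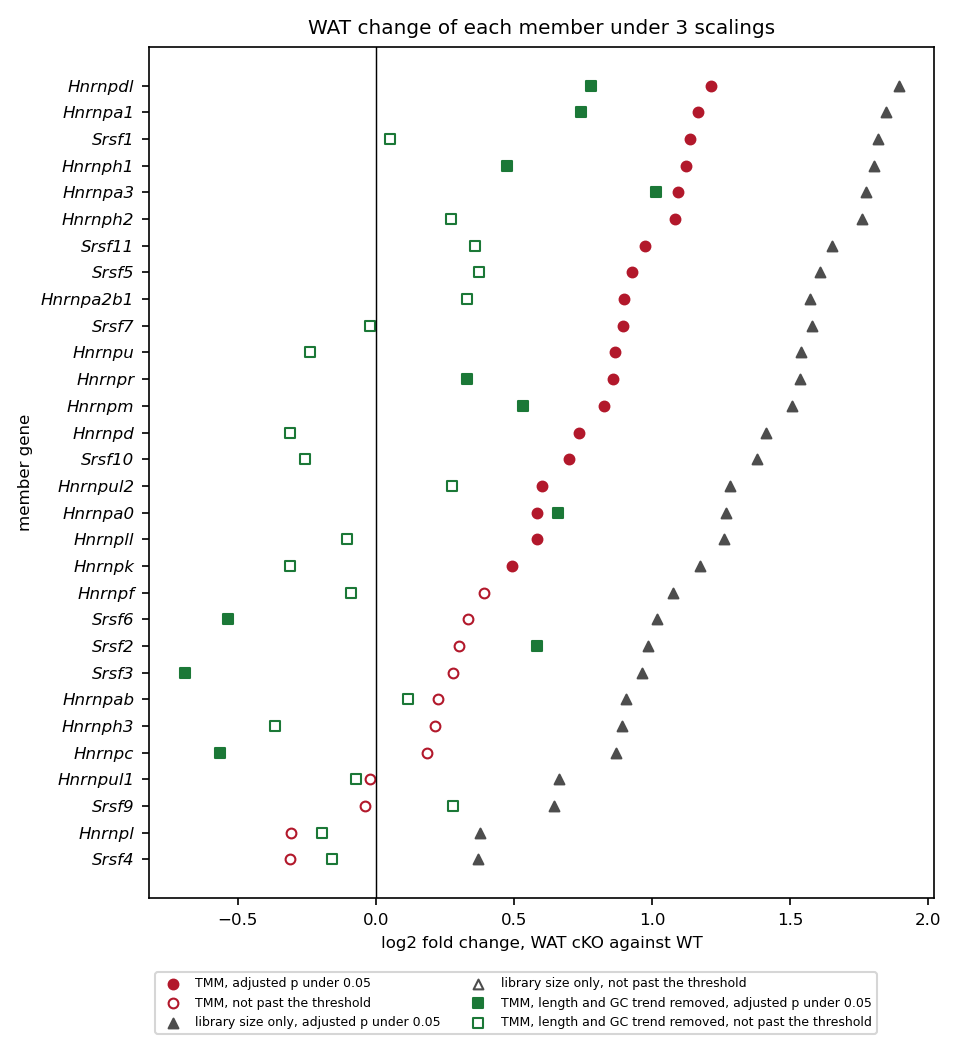
Log2 fold change of each of 30 members in WAT, cKO against WT, under TMM, library size only, and TMM with the length and GC trend removed. Filled symbols have an adjusted p under 0.05; with library size all 30 lie right of 0, and with the trend removed 14 lie left of it, among them Srsf3, Srsf6 and Hnrnpc as calls.

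The A, B and D families of hnRNPs showed the most calls, with 6 of 7 members higher in cKO WAT on the TMM scale. Hnrnpdl (chr5:100033577-100039936), a relative of the mRNA decay factor Hnrnpd, was at 76.5, 83.6 and 80.3 CPM in cKO WAT, against 43.6, 30.7 and 29.3 CPM in WT WAT. The groups did not overlap, and WT replicate 1 was the highest of the WT libraries (log2 fold change 1.21, SE 0.17, adjusted p = 0.00165). Hnrnpa1 (chr15:103239943-103246698), which represses exons by binding silencers and whose promoter is printed above, had 103, 104 and 110 CPM in cKO WAT, against 42.3, 41.8 and 57.0 CPM in WT WAT. Its groups were also apart (1.16, SE 0.15, adjusted p = 0.00123). Hnrnpa3, a close relative of Hnrnpa1, had 71.4, 75.7 and 64.2 CPM in cKO WAT, against 35.4, 29.2 and 34.3 CPM in WT WAT (1.10, SE 0.13, adjusted p = 0.000943). It kept the largest rise of all members with the trend removed (1.01, adjusted p = 0.000923).

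Hnrnpa2b1 rose by less and was more variable. It was at 272, 300 and 256 CPM in cKO WAT, against 189, 109 and 147 CPM in WT WAT (log2 fold change 0.90, SE 0.21, adjusted p = 0.00967), and with the trend removed it did not pass (0.33, adjusted p = 0.140). Hnrnpd, which binds AU-rich elements and speeds the decay of mRNAs, was at 46.5, 42.9 and 46.4 CPM in cKO WAT, against 37.1, 21.7 and 22.9 CPM in WT WAT (0.73, SE 0.21, adjusted p = 0.0240). WT replicate 1 lay close to the cKO libraries, and the call was lost without WT replicate 2 (adjusted p = 0.0818) or 3 (adjusted p = 0.0845) and also when cKO replicate 1 (adjusted p = 0.0702) or 3 (adjusted p = 0.0510) was left out. Hnrnpa0, an intronless gene whose product binds AU-rich elements, was at 124, 108 and 149 CPM in cKO WAT, against 88.7, 80.8 and 85.7 CPM in WT WAT. Its groups did not overlap (0.58, SE 0.15, adjusted p = 0.0131; 0.66, adjusted p = 0.00591 with the trend removed), and without WT replicate 2 the adjusted p was 0.0563. Hnrnpab did not pass, with 237 to 275 CPM in cKO WAT and 221 to 224 CPM in WT WAT (0.22, SE 0.12, adjusted p = 0.149).

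Among the SR genes with a pair of RNA recognition motifs, 2 of 5 rose on the TMM scale. Srsf1 (chr11:88046499-88053757), the founding SR protein, was at 50.1, 44.4 and 51.4 CPM in cKO WAT, against 26.6, 18.5 and 21.3 CPM in WT WAT. The groups were apart, and the log2 fold change of 1.14 (SE 0.16, adjusted p = 0.00157) was the largest among SR genes, but with the trend removed it was 0.05 (adjusted p = 0.742). Srsf5, one of the more abundant SR genes, had 140, 131 and 138 CPM in cKO WAT, against 84.9, 65.2 and 65.1 CPM in WT WAT (0.93, SE 0.14, adjusted p = 0.00207; 0.37, adjusted p = 0.0650 with the trend removed). Every cKO library lay above every WT library for both genes. Srsf4, Srsf6 and Srsf9 did not pass. Srsf4 was the lowest of all members by fold change, at 61.8, 60.8 and 60.6 CPM in cKO WAT, against 78.5, 79.7 and 68.9 CPM in WT WAT (-0.31, SE 0.11, adjusted p = 0.0513), and all cKO libraries lay below all WT libraries. With library size only its sign turned (0.37, adjusted p = 0.0236).

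Of the SR genes with a single RNA recognition motif 3 of 5 tested rose on the TMM scale. Srsf11, which in mouse neurons promotes the use of very short exons, was at 74.0, 85.7 and 84.7 CPM in cKO WAT, against 49.0, 37.1 and 38.3 CPM in WT WAT (log2 fold change 0.97, SE 0.15, adjusted p = 0.00207). Its groups did not overlap, and with the trend removed it missed the threshold (0.36, adjusted p = 0.0615). Srsf7, which takes part in mRNA export, rose by 0.89 (SE 0.16, adjusted p = 0.00362) and was at -0.02 with the trend removed (adjusted p = 0.929). Srsf10, a repressor of splicing in its dephosphorylated form, rose by 0.70 (SE 0.19, adjusted p = 0.0176), and its call was lost without WT replicate 3 (adjusted p = 0.0502) and also when cKO replicate 3 (adjusted p = 0.0504) was left out.

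Srsf2 and Srsf3 did not pass with TMM and passed, in opposite directions, with the trend removed. Srsf2 had 206, 177 and 225 CPM in cKO WAT, against 149, 166 and 178 CPM in WT WAT, with cKO replicate 2 just under WT replicate 3. Its log2 fold change was 0.30 (SE 0.14, adjusted p = 0.108), and with the trend removed 0.58 (adjusted p = 0.00961). Srsf3, the smallest SR protein, had 103, 91.4 and 120 CPM in cKO WAT, against 87.1, 91.1 and 80.5 CPM in WT WAT. Its groups were adjacent without overlap (0.28, SE 0.14, adjusted p = 0.124), and the value with the trend removed was -0.69 (adjusted p = 0.0120). With the reads of its numbered copy added it passed in the positive direction (0.38, adjusted p = 0.0373).

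Of the hnRNPs C, K, L, M and R and the L-like gene, 4 of 6 rose on the TMM scale. Hnrnpr, which takes part in mRNA transport in neurons, had 37.6, 39.3 and 39.2 CPM in cKO WAT, against 21.9, 18.4 and 23.8 CPM in WT WAT (log2 fold change 0.86, SE 0.13, adjusted p = 0.00207; 0.33, adjusted p = 0.0427 with the trend removed). Hnrnpm, which binds GU-rich intronic elements, had 92.6, 84.2 and 90.9 CPM in cKO WAT, against 58.0, 45.2 and 47.7 CPM in WT WAT (0.83, SE 0.13, adjusted p = 0.00257; 0.53, adjusted p = 0.0101 with the trend removed). For both genes the groups did not overlap. Hnrnpll, known in mouse T cells for the splicing of the Ptprc gene, rose by 0.58 (SE 0.15, adjusted p = 0.0157), and Hnrnpk by 0.49 (SE 0.14, adjusted p = 0.0211). The call of Hnrnpk was lost without WT replicate 1 (adjusted p = 0.0779) or 2 (adjusted p = 0.0858) and also when cKO replicate 1 (adjusted p = 0.0888) or 3 (adjusted p = 0.0542) was left out, and that of Hnrnpll without cKO replicate 1 (adjusted p = 0.0572).

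Hnrnpl and Hnrnpc were the exceptions among these 6. Hnrnpl (chr7:28808546-28822268), which binds CA repeats and whose promoter is printed above, had 147, 145 and 175 CPM in cKO WAT, against 175, 208 and 195 CPM in WT WAT. Replicate 3 of cKO and replicate 1 of WT were at the same level, and the others were apart (-0.31, SE 0.14, adjusted p = 0.0924). Its sign turned with library size only (0.38, adjusted p = 0.0474). Hnrnpc, which packages nascent RNA at uridine tracts, had 181, 162 and 189 CPM in cKO WAT, against 148, 142 and 178 CPM in WT WAT, and the groups overlapped (0.19, SE 0.14, adjusted p = 0.282). With the trend removed it was called lower (-0.56, adjusted p = 0.0132).

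The F and H family binds runs of guanosines, and 2 of its 4 members rose on the TMM scale. Hnrnph1 had 122, 126 and 128 CPM in cKO WAT, against 63.7, 48.3 and 60.4 CPM in WT WAT (log2 fold change 1.12, SE 0.14, adjusted p = 0.000997; 0.48, adjusted p = 0.0110 with the trend removed). Hnrnph2, its relative on chromosome X, had 52.8, 53.9 and 49.5 CPM in cKO WAT, against 26.6, 23.5 and 23.8 CPM in WT WAT (1.08, SE 0.11, adjusted p = 0.000723; 0.27, adjusted p = 0.0787 with the trend removed). For both genes the ranges of cKO and WT were apart, and WT replicate 2 was the lowest library. Hnrnpf missed the threshold (0.39, SE 0.15, adjusted p = 0.0602), and Hnrnph3 had 14.6, 16.7 and 14.2 CPM in cKO WAT, against 15.8, 8.97 and 14.5 CPM in WT WAT, with overlap (0.22, SE 0.23, adjusted p = 0.462).

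In the U family, whose proteins bind both RNA and chromatin or act in the response to DNA damage, 2 of 3 genes rose on the TMM scale. Hnrnpu, which attaches RNA to the nuclear scaffold, was at 55.6, 64.6 and 45.1 CPM in cKO WAT, against 39.3, 21.2 and 30.2 CPM in WT WAT (log2 fold change 0.87, SE 0.24, adjusted p = 0.0206). The groups did not overlap, but the call was lost without WT replicate 2 (adjusted p = 0.0522) or 3 (adjusted p = 0.0630) and also when cKO replicate 1 (adjusted p = 0.0592) or 2 (adjusted p = 0.0568) was left out, and the sign turned with the trend removed (-0.24, adjusted p = 0.339). With the reads of its numbered copy Hnrnpu-2 added, Hnrnpu rose by 0.94 on the TMM scale (adjusted p = 0.00254). The copy alone was at -0.14 with the trend removed (adjusted p = 0.330). Hnrnpul2 rose by 0.60 (SE 0.12, adjusted p = 0.00525). Hnrnpul1 was the member nearest to no change, at 96.9, 80.4 and 113 CPM in cKO WAT, against 97.1, 101 and 96.8 CPM in WT WAT (-0.02, SE 0.15, adjusted p = 0.905). Srsf9 was close to it, at 51.4, 41.3 and 52.4 CPM in cKO WAT, against 53.0, 50.6 and 45.5 CPM in WT WAT (-0.04, SE 0.14, adjusted p = 0.832), and both genes were positive and past the threshold with library size only.

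Shares of the members' reads do not depend on TMM or library size, and they also changed unequally. The length and GC trend, which differs between genes, was not removed from them. Hnrnpa1 made up 3.04% ± 0.09 of the members' reads in cKO WAT and 1.90% ± 0.31 in WT WAT (SD, n = 3 each), and Hnrnpdl 2.31% ± 0.19 in cKO WAT and 1.39% ± 0.28 in WT WAT. In the other direction, Hnrnpl made up 4.48% ± 0.28 in cKO WAT and 7.81% ± 1.04 in WT WAT, and Srsf4 1.76% ± 0.09 in cKO WAT and 3.07% ± 0.35 in WT WAT. Such shares say that these genes changed unequally, and do not show which of them changed in amount. With the trend removed the members' median log2 fold change was 0.08. Hnrnpa1 was then at 0.74 (adjusted p = 0.00474) and Hnrnpdl at 0.78 (adjusted p = 0.00778). Hnrnpl was at -0.20 (adjusted p = 0.235) and Srsf4 at -0.16 (adjusted p = 0.298).

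**Figure D3:**
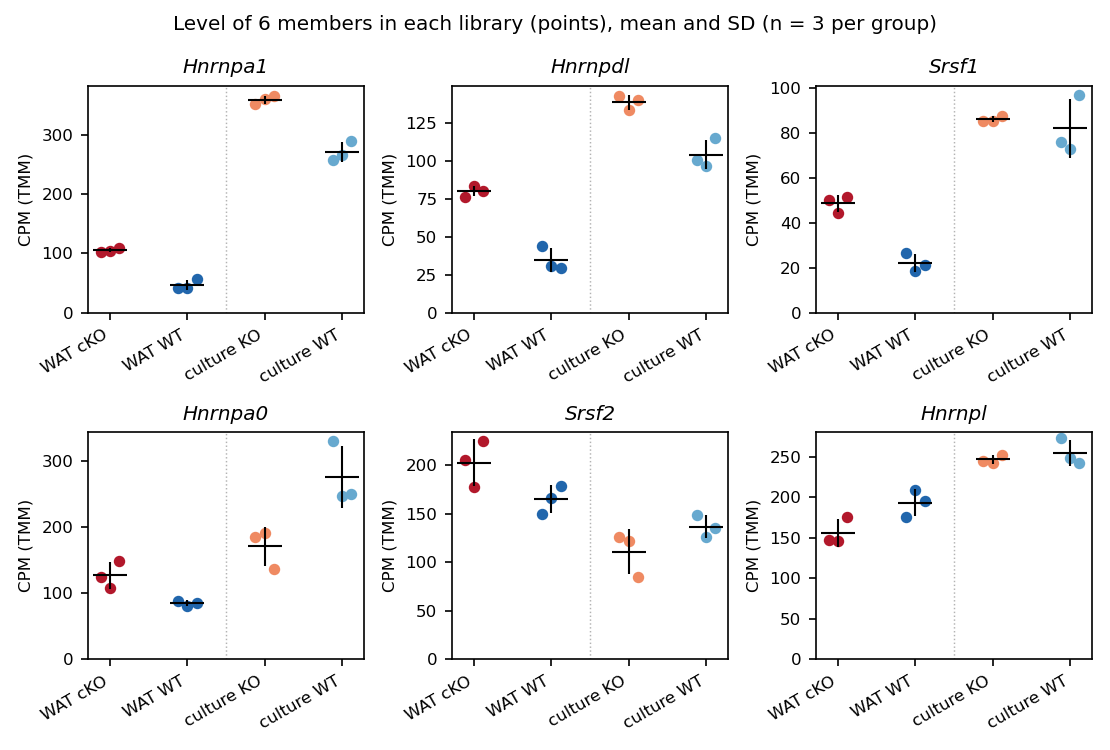
CPM of Hnrnpa1, Hnrnpdl, Srsf1, Hnrnpa0, Srsf2 and Hnrnpl in each library (points), with the mean and SD of 3 libraries per group, knockout left of WT in tissue and then in culture. In tissue the knockout libraries of the first 4 genes lie above the WT libraries on this TMM scale, and in culture Hnrnpa0 lies below; with the length and GC trend removed Srsf1 in tissue was at 0.05 on the log2 scale.

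In culture the changes were smaller and divided. Of 30 members tested, 9 rose in KO cultures, 1 fell and 20 did not pass, where 8.94% of 12587 genes were called higher and 10.6% lower. The median log2 fold change was 0.22, against -0.02 over all genes. Of the hnRNP genes 8 of 20 rose and 1 fell, and of the SR genes 1 of 10, Srsf3, rose. In 16 members every KO library was above every WT library, against 18.0% of all genes, and in 2 members every KO library was below, against 18.8%. The calls depended on WT replicate 2: without it 0 members were called higher and 1 lower, where 3.13% of all genes were called higher and 3.91% lower. Without WT replicate 3, 15 were called higher and 1 lower, where 13.5% and 13.2% of all genes were. With KO replicate 2 left out 4 were called higher, where 5.23% of all genes were, and with WT replicate 1 left out 5 were, where 5.40% of all genes were. In 1 fit over all 12 libraries, which share 1 estimate of the spread, 0 members were called higher or lower in culture, where 0.401% and 0.608% of all genes were. With the length and GC trend removed 5 rose and 1 fell, where 11.0% and 9.24% of all genes did, and no SR gene was called.

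The single fall was that of Hnrnpa0 (chr13:58125879-58128556). It had 185, 192 and 137 CPM in KO cultures, against 331, 248 and 250 CPM in WT cultures. The groups were clearly apart, with KO replicate 3 lowest and WT replicate 1 highest (log2 fold change -0.69, SE 0.13, adjusted p = 0.00108). The call held without each library in turn, with adjusted p from 0.00115 to 0.0111, and with the trend removed (-0.54, adjusted p = 0.00193). In 1 fit over all 12 libraries it missed the threshold (-0.69, adjusted p = 0.0632). Its only transcript in GENCODE M21 has 1 exon, whereas the principal transcripts of every other member had at least 2 exons, except for Hnrnpf, whose principal transcripts had 1 to 4.

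Of the 9 members that rose in culture, Hnrnpa3 had the largest log2 fold change and the least certain one. It was at 4.60, 15.1 and 7.94 CPM in KO cultures, against 6.67, 3.36 and 5.86 CPM in WT cultures, so the groups overlapped and KO replicate 2 alone was far above (0.84, SE 0.29, adjusted p = 0.0445). Without KO replicate 2 it was 0.28 (adjusted p = 0.544), and it was not called without WT replicate 2 (adjusted p = 0.205) or 3 (adjusted p = 0.0763), with library size only (0.79, adjusted p = 0.0543) and with the trend removed (0.66, adjusted p = 0.152). DESeq2 (adjusted p = 0.318) and limma voom (adjusted p = 0.0756) did not call it either.

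The other 8 rises lay between 0.33 and 0.44 on the log2 scale, with no overlap between groups. Hnrnpm was at 255, 228 and 237 CPM in KO cultures, against 170, 167 and 193 CPM in WT cultures (0.44, SE 0.11, adjusted p = 0.00687; 0.53, adjusted p = 0.000363 with the trend removed). Hnrnpdl was at 143, 133 and 140 CPM in KO cultures, against 101, 96.5 and 115 CPM in WT cultures (0.41, SE 0.11, adjusted p = 0.0105). Hnrnpa1 was at 352, 361 and 366 CPM in KO cultures, against 259, 266 and 290 CPM in WT cultures (0.41, SE 0.11, adjusted p = 0.00979). For these 3 genes WT replicate 3 was the highest WT library, and each passed with the trend removed. Without WT replicate 2 the adjusted p was 0.0596 for Hnrnpm, 0.0833 for Hnrnpdl and 0.0644 for Hnrnpa1, and their calls held without any other single library.

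Hnrnph1 was at 267, 243 and 253 CPM in KO cultures, against 177, 173 and 225 CPM in WT cultures (0.41, SE 0.12, adjusted p = 0.0159), and Hnrnph2 at 142, 153 and 151 CPM in KO cultures, against 107, 103 and 127 CPM in WT cultures (0.40, SE 0.11, adjusted p = 0.0136). Hnrnpr was at 103, 109 and 115 CPM in KO cultures, against 77.3, 76.0 and 97.7 CPM in WT cultures (0.38, SE 0.12, adjusted p = 0.0240). WT replicate 3 again lay between the other WT libraries and the KO libraries. Of these 3, only Hnrnpr passed with the trend removed (0.27, adjusted p = 0.0198). Hnrnpc was at 249, 249 and 247 CPM in KO cultures, against 192, 183 and 198 CPM in WT cultures (0.38, SE 0.10, adjusted p = 0.0139). Srsf3 was at 215, 195 and 211 CPM in KO cultures, against 148, 161 and 184 CPM in WT cultures (0.33, SE 0.11, adjusted p = 0.0391), and its call was lost without any single library other than WT replicate 3. Neither Hnrnpc (0.16, adjusted p = 0.159) nor Srsf3 (0.06, adjusted p = 0.641) passed with the trend removed. Srsf3 did not pass with library size only either (0.27, adjusted p = 0.0825). The call of Hnrnpc was lost without KO replicate 2 or WT replicate 2, that of Hnrnph1 without KO replicate 1, WT replicate 1 or WT replicate 2, that of Hnrnph2 without KO replicate 2, WT replicate 1 or WT replicate 2, and that of Hnrnpr without KO replicate 2 or 3 or WT replicate 1 or 2.

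Among the members that did not pass in culture, Hnrnpab, Srsf9, Srsf11 and Hnrnpl were nearest to no change. Hnrnpab was at 494 to 512 CPM in KO and 496 to 531 CPM in WT cultures (log2 fold change -0.02, SE 0.11, adjusted p = 0.924). Hnrnpl was at 242 to 252 CPM in KO and 242 to 273 CPM in WT cultures (-0.05, SE 0.11, adjusted p = 0.796), and the groups of both genes overlapped. Srsf9 differed by -0.03 (SE 0.12, adjusted p = 0.873) and Srsf11 by 0.04 (SE 0.11, adjusted p = 0.826). Srsf2 had the lowest value among SR genes, at 126, 122 and 84.3 CPM in KO cultures, against 149, 126 and 135 CPM in WT cultures (-0.30, SE 0.13, adjusted p = 0.104), with KO replicate 3 below all other libraries. Hnrnpul1 was the second member with no overlap and lower KO levels, at 110 to 134 CPM in KO and 139 to 153 CPM in WT cultures (-0.23, SE 0.11, adjusted p = 0.154).

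In culture, some marker lists moved with the genotype too, in another pattern than in tissue. Of 11 adipocyte markers tested 5 rose and 1 fell, of 10 macrophage markers 5 fell, and of 7 endothelial markers 3 fell. Of 8 fibroblast markers tested 1 rose and 2 fell, and of 12 cell division markers 1 rose. Over all genes 8.94% were called higher and 10.6% lower, so the rise among cell division markers lay near that share. Summed cell division markers were at 532 to 613 CPM in KO and 479 to 528 CPM in WT cultures. Their part in the members' values was not tested.

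**Figure D4:**
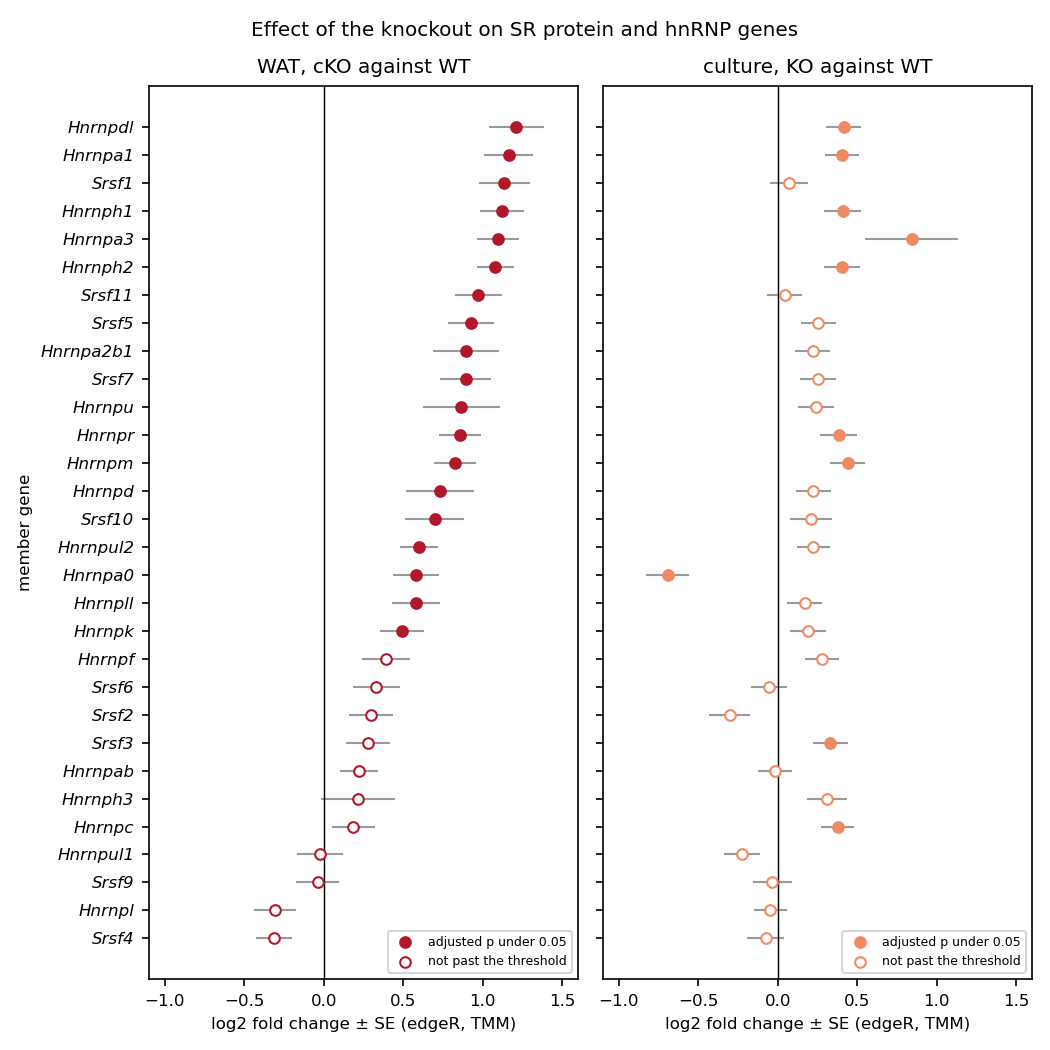
Log2 fold change of each of 30 members with its SE (edgeR, TMM), for WAT on the left and cultures on the right, ordered by the WAT value. Filled points have an adjusted p under 0.05: 19 lie right of 0 in WAT, 6 of which turn negative there with the length and GC trend removed, and in culture 9 lie right of 0 and Hnrnpa0 left of it.

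Both comparisons rest on separate libraries, including separate WT groups. Called higher in both were 7 members, namely Hnrnpdl, Hnrnpa1, Hnrnph1, Hnrnpa3, Hnrnph2, Hnrnpr and Hnrnpm, all of them hnRNPs. Over all genes 28.2% were called higher in tissue and 8.94% in culture, and the share called in both was not computed. The culture groups of Hnrnpa3 overlapped, and its culture call was lost with the trend removed (adjusted p = 0.152). Hnrnpa0 was called higher in tissue and lower in culture. Another 11 were called in tissue alone, 2 (Srsf3 and Hnrnpc) in culture alone, and 9 in neither. The effect of the knockout differed between tissue and culture in 14 members, all with the larger value in tissue, where 27.7% of 14463 genes were called higher and 21.1% lower (interaction over all 12 libraries, edgeR). None of the 30 was lower in this test, also at an unadjusted p under 0.05, with DESeq2 and with limma voom (0 members each). With the trend removed 5 differed in this direction and 2 in the other, where 17.9% and 29.1% of all genes did, and with library size only 28 differed in this direction and 0 in the other, where 50.7% and 8.28% of all genes did.

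Hnrnpa0 had the largest difference, 1.31 on the log2 scale (WAT minus culture, SE 0.23, adjusted p = 0.000573), and it was 1.18 with the trend removed (adjusted p = 0.000430). Srsf1 followed with 1.10 (SE 0.20, adjusted p = 0.000770), and this gene, which rose in tissue, was at 85.2, 85.2 and 87.5 CPM in KO cultures, against 76.1, 72.8 and 96.9 CPM in WT cultures (0.07, SE 0.12, adjusted p = 0.722). With the trend removed the difference of Srsf1 was 0.07 (adjusted p = 0.710). Srsf11 differed by 0.96 (SE 0.18, adjusted p = 0.000827; 0.40, adjusted p = 0.0324 with the trend removed). Among the genes called higher in both, Hnrnpdl, Hnrnpa1 and Hnrnph2 rose more in tissue, by 0.83 (SE 0.20, adjusted p = 0.00396), 0.79 (SE 0.17, adjusted p = 0.00247) and 0.71 (SE 0.15, adjusted p = 0.00188). So did Hnrnph1 (0.75, SE 0.18, adjusted p = 0.00500) and Hnrnpr (0.51, SE 0.18, adjusted p = 0.0288), while Hnrnpa3 and Hnrnpm did not pass (adjusted p = 0.614 and 0.0507). Of all these genes, only Hnrnpa1 was called with the trend removed (0.50, adjusted p = 0.0183). For Srsf2, which passed in neither comparison alone, the difference was 0.64 (SE 0.22, adjusted p = 0.0278; 0.83, adjusted p = 0.00267 with the trend removed). Srsf3 and Hnrnpc, the 2 called in culture alone, did not differ by the test (-0.02, SE 0.18, adjusted p = 0.956, and -0.16, SE 0.16, adjusted p = 0.434), and with the trend removed both were lower in tissue (-0.76, adjusted p = 0.00415, and -0.74, adjusted p = 0.00211).

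**Figure D5:**
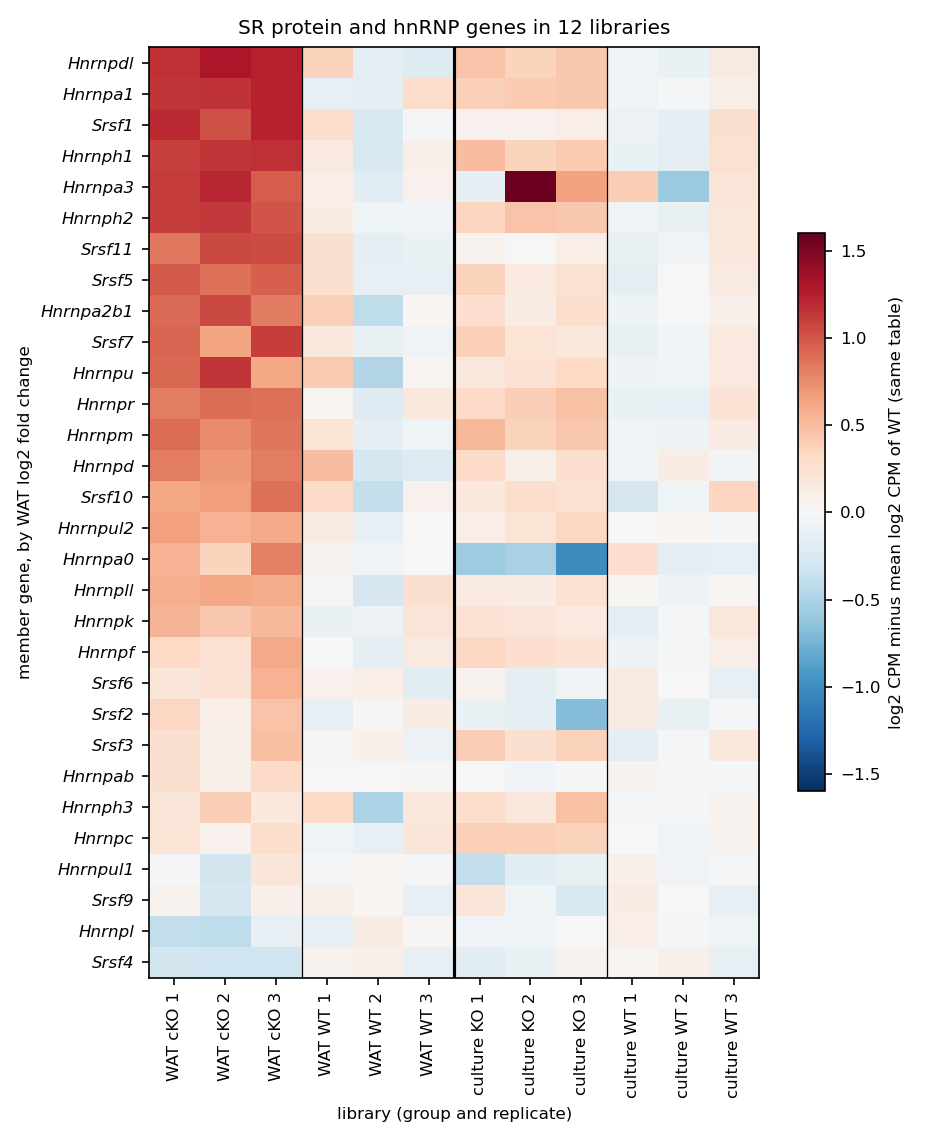
Log2 CPM (TMM) of 30 members in each of the 12 libraries, minus the mean log2 CPM of the WT libraries of the same table, with genes ordered by their WAT log2 fold change. Red is above and blue below the WT mean: the top 19 genes are red in all 3 cKO libraries, 6 of which turn negative with the length and GC trend removed, and in culture Hnrnpa0 is blue in all 3 KO libraries.

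Of 4 lists of genes that act with SR proteins and hnRNPs, 3 had a median log2 fold change between 0.56 and 0.59 in tissue and 1 had a median of 0.07, against 0.12 over all genes, of which 28.2% were called higher and 24.2% lower. Of 14 kinases, phosphatase subunits and import receptors of SR proteins, 7 rose and 1 fell in cKO WAT, with a median log2 fold change of 0.56. Clk1, a kinase that phosphorylates SR proteins in the nucleus, was at 51.3, 60.4 and 73.6 CPM in cKO WAT, against 30.1, 23.4 and 24.0 CPM in WT WAT (1.26, SE 0.18, adjusted p = 0.00154), and Clk4 rose by 1.04 (SE 0.16, adjusted p = 0.00238). Neither passed with the trend removed (0.48, adjusted p = 0.0628, and 0.40, adjusted p = 0.0798). Ppp1ca, a catalytic subunit of the phosphatase that acts on SR proteins, fell to 129, 159 and 155 CPM in cKO WAT, against 403, 390 and 404 CPM in WT WAT (-1.43, SE 0.13, adjusted p = 0.000604), and it was lower under all 3 scalings (-0.75, adjusted p = 0.00200 with library size, and -1.17, adjusted p = 0.00108 with the trend removed). With the trend removed the list had 0 rises and 4 falls, where 18.4% of all genes were called higher and 28.5% lower.

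Of 23 SR-related factors 15 rose and 1 fell in cKO WAT, with a median of 0.59. Rbm39 rose by 1.32 (SE 0.14, adjusted p = 0.000752), Pnn by 1.48 (SE 0.19, adjusted p = 0.00108) and Tra2b, a partner of SR proteins at exonic enhancers, by 1.09 (SE 0.14, adjusted p = 0.00116). With the trend removed 8 of this list rose, among them Rbm39 and Pnn (adjusted p = 0.00799 and 0.0157), and 1 fell. Over all genes 18.4% were called higher and 28.5% lower in that setting. Of 14 hnRNP proteins listed under other symbols 5 rose and 4 fell, with a median of 0.07. Ptbp3, a repressor of the polypyrimidine tract binding family, had 68.4, 59.5 and 69.5 CPM in cKO WAT, against 24.7, 17.5 and 20.5 CPM in WT WAT (1.66, SE 0.16, adjusted p = 0.000621; 0.70, adjusted p = 0.00371 with the trend removed). Ptbp2 rose by 1.57 (SE 0.19, adjusted p = 0.00105) and Tardbp by 1.06 (SE 0.13, adjusted p = 0.00110). With the trend removed neither of them passed (0.55, adjusted p = 0.0747, and -0.01, adjusted p = 0.937). In that setting 2 of this list rose and 6 fell, where 18.4% of all genes were called higher and 28.5% lower. The list's median was then -0.26, against -0.10 over all genes. Of 24 other splicing regulators tested 13 rose and 3 fell, with a median of 0.59. Rbm25 rose by 1.33 (SE 0.14, adjusted p = 0.000720), Mbnl1 by 1.18 (SE 0.13, adjusted p = 0.000792) and Matr3 by 1.13 (SE 0.11, adjusted p = 0.000640), and of these 3 Rbm25 passed with the trend removed (0.39, adjusted p = 0.0269).

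In culture each of these lists had between 1 and 3 genes that rose and at most 1 that fell on the TMM scale. Over all genes 8.94% were called higher and 10.6% lower, so the rises on this scale lay near the share over all genes. With the trend removed 0 of 13 genes of the first list, 6 of 23 SR-related factors and 4 of 23 other splicing regulators rose. Of 14 hnRNP proteins under other symbols 1 rose and 1 fell. In that setting 11.0% of all genes were called higher and 9.24% lower. Clk4 and Clk1 were the 2 of 13 tested genes of the first list that rose, by 0.42 (SE 0.12, adjusted p = 0.0192) and 0.40 (SE 0.12, adjusted p = 0.0225), and neither passed with the trend removed. Ppp1cb, next in that list, was at 0.25 (SE 0.12, adjusted p = 0.162). Among the SR-related factors 2 of 23 rose, Pnn (0.36, SE 0.11, adjusted p = 0.0303) and Bclaf1 (0.38, SE 0.12, adjusted p = 0.0315). Srrm2, a large scaffold protein of nuclear speckles, fell to 224, 248 and 346 CPM in KO cultures, against 370, 379 and 374 CPM in WT cultures (-0.46, SE 0.13, adjusted p = 0.0162), with KO replicate 3 close to the WT libraries, and it was at -0.12 with the trend removed (adjusted p = 0.361). Rbm3, a cold-inducible RNA-binding protein, rose by 0.44 (SE 0.11, adjusted p = 0.00689) as the 1 of 14 hnRNP proteins under other symbols. With the trend removed Rbm3 did not pass (0.11, adjusted p = 0.294). Ptbp1 (-0.30, SE 0.11, adjusted p = 0.0579) and Pcbp3 (-0.38, SE 0.16, adjusted p = 0.0942) did not pass on the TMM scale. Matr3, a nuclear matrix protein, rose to 243, 253 and 255 CPM in KO cultures, against 147, 145 and 202 CPM in WT cultures (0.60, SE 0.12, adjusted p = 0.00167; 0.41, adjusted p = 0.000988 with the trend removed). Nono (0.36, SE 0.11, adjusted p = 0.0202) and Tial1 (0.35, SE 0.11, adjusted p = 0.0322) were the other 2 of 23 splicing regulators that rose. With the trend removed Nono passed (0.33, adjusted p = 0.00484) and Tial1 did not (0.22, adjusted p = 0.115). Tial1 did not pass with library size only either (adjusted p = 0.0674).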

How the data were processed

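RNA was extracted with TRIzol and made into messenger RNA libraries with the MGIEasy kit, per the labels' protocols. The authors deposited unnormalized read counts, in 1 table of 26639 features for WAT and 1 of 22851 features for culture. Tools named in the submitters' processing notes, without their roles, are HISAT2 2.1.0, cutadapt 1.11 and FastQC 0.11.2, and the build is GRCm38. No source used here names the counting tool, annotation or strand setting, so overlapping or antisense genes and near-identical copies are uncertain. Groups came from the sample titles. Any pair of libraries of a group differed beyond sampling noise (chi-square over degrees of freedom between 4.81 and 202), so none was taken for a duplicate.

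Tissue and culture were each tested on their own 6 libraries, and the interaction on all 12, with edgeR 4.0.16 in R 4.3.3 (glmQLFit and glmQLFTest, TMM, filterByExpr with a minimum count of 10). P-values were adjusted by Benjamini-Hochberg over all genes tested, with a threshold of 0.05. Where no other tool is named, an adjusted p is from this test. The SE is the log2 fold change divided by the square root of F. Biological coefficients of variation were 0.319 in WAT, 0.114 in culture and 0.227 over both. TMM factors averaged 1.27 in cKO WAT, 0.790 in WT WAT, 0.981 in KO cultures and 1.02 in WT cultures. Lengths and GC content are of the principal transcript in GENCODE M21 with the lower-median length, known for 92.3% of tested genes in WAT and for 99.2% in culture. The trend with length and GC was fitted per library with mgcv 1.9.3 and removed as an offset. Gene coordinates and promoters are from RefSeq on GRCm38.p6.

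The alternatives were RLE size factors, library size only, testing without a count filter, a block on the replicate number, DESeq2 1.42.0, limma voom (limma 3.58.1), the trend removal, numbered copies summed, 1 fit over 4 groups, and each library left out in turn. The tests were tried on simulated counts.

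Members and gene lists were chosen with earlier results of these data known. Full values are given, per comparison, to the 8 members past the threshold with the largest change, the 4 nearest to no change, the 6 with the smallest interaction p, and the most and least abundant member per length. From each related list the 3 genes with the smallest p are named. Values of further members and the promoters printed were chosen after their values were seen.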

Additional observations from a re-analysis of the deposited data

Results flagged for a closer look

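The effect of the knockout differed between tissue and culture in 14 members by the test of the difference itself (edgeR interaction over 12 libraries). Over all 14463 genes tested, 27.7% were called higher in this test and 21.1% lower. The differences of log2 fold changes, WAT minus culture, were 1.31 for Hnrnpa0, 1.10 for Srsf1, 0.96 for Srsf11, 0.83 for Hnrnpdl, 0.79 for Hnrnpa1, 0.75 for Hnrnph1 and 0.71 for both Hnrnph2 and Hnrnpa2b1. They were 0.71 for Srsf5, 0.68 for Srsf7, 0.64 for Srsf2, 0.51 for Hnrnpr, 0.45 for Hnrnpll and 0.41 for Hnrnpul2. Of these, 12 were also positive both with library size only and after removal of the length and GC trend, while Hnrnpll and Hnrnpul2 were negative with the trend removed. Leaving out any 1 of the 12 libraries kept 9 of the 14 calls. With the trend removed 5 members were called higher and 2 lower, where 17.9% and 29.1% of all genes were.

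The 4 numbered copies that the tissue table lists beside their symbols were not among the members, and each rose in cKO WAT on the TMM scale. Hnrnpu-2 was at 99.1, 87.1 and 107 CPM in cKO WAT, against 54.4, 42.4 and 50.8 CPM in WT WAT, with a log2 fold change of 0.99 (SE 0.14, adjusted p = 0.00175), and so held more reads than Hnrnpu itself. Srsf1-2 rose by 1.12 (SE 0.17, adjusted p = 0.00212), Srsf1-3 by 0.89 (SE 0.20, adjusted p = 0.00910) and Srsf3-2 by 0.78 (SE 0.21, adjusted p = 0.0171). None passed with the trend removed, where Hnrnpu-2 was at -0.14 (adjusted p = 0.330), Srsf1-2 at 0.03 (adjusted p = 0.843), Srsf1-3 at -0.20 (adjusted p = 0.381) and Srsf3-2 at -0.17 (adjusted p = 0.471).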

How the results depend on the processing

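Calls of members in WAT were 19 higher with TMM, RLE, no filter, the replicate block, DESeq2 and limma voom. They were 30 higher with library size only, 8 higher and 3 lower after removal of the length and GC trend, and 1 was lower with RLE, with numbered copies summed and in 1 fit over 4 groups, and 2 with DESeq2. Leaving out 1 library gave 15 to 21 higher and 0 lower. Over all genes in WAT, library size only gave 8838 higher and 1427 lower (4595 and 3947 with TMM), and the trend removed 3001 higher. In culture, members called higher were 5 with the trend removed and 0 in 1 fit over 4 groups (0 lower), where all genes gave 58 higher and 88 lower, and 0 to 15 higher and 1 lower when 1 library was left out, where all genes gave 399 to 1715 higher and 498 to 1665 lower. The interaction gave 28 members higher with library size only, 5 higher and 2 lower with the trend removed, and 10 to 17 higher and 0 lower without 1 library. Over all genes it gave 7331 higher and 1198 lower with library size only, against 4009 and 3052 with TMM, and 2595 higher with the trend removed. The cause of these shifts was not tested.

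With the replicate number as a block, culture gave 14 members higher and 2 lower, and 1816 genes higher and 2008 lower. Same-numbered libraries deviated together with r of -0.35, 0.02 and -0.21 in WAT and 0.24, 0.05 and 0.29 in culture. Libraries with different numbers had r from -0.062 to 0.38 in WAT and from -0.28 to 0.093 in culture. In culture, replicates 1 and 3 thus lay above all values of differently numbered libraries. The labels name no pairs, so the numbers were not taken as pairs, and whether they mark pairs in culture was not tested. The block gave 6 calls among SR-related factors and 3 among hnRNP proteins under other symbols in culture, and it moved no other count of members or lists by more than 1.5 times.

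Of the related lists in WAT, kinases, phosphatase and import gave 13 calls with library size only and 4 with the trend removed, and SR-related factors and other splicing regulators 9 each with the trend removed. Over all genes in WAT, library size only called 54.2% higher and 8.76% lower, and the trend removed 18.4% and 28.5%. In culture these lists gave, with the trend removed, 0 calls for kinases, 6 for SR-related factors, all of them rises, and 2 for hnRNP proteins under other symbols. Over all genes in culture, that setting called 11.0% higher and 9.24% lower. With library size only there was 1 for SR-related factors and 2 for hnRNP proteins under other symbols, also 2 with DESeq2. In 1 fit over 4 groups there were 0, 0, 0 and, for other splicing regulators, 1. Without 1 culture library the lists gave 0 to 4, 0 to 8, 1 to 5 and 1 to 4 calls.

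Signs turned as follows. In WAT with library size only, Hnrnpl was 0.38, Hnrnpul1 0.66, Srsf4 0.37, Srsf9 0.65 and Fam50a 0.089. In WAT with the trend removed, Hnrnpc was -0.56, Hnrnpd -0.31, Hnrnpf -0.092, Hnrnph3 -0.37, Hnrnpk -0.31, Hnrnpll -0.10, Hnrnpu -0.24, Srsf10 -0.26, Srsf3 -0.69, Srsf6 -0.53, Srsf7 -0.020, Srsf9 0.28 and Tardbp -0.014. In 1 fit over 4 groups, Hnrnpul1 was 0.019 and Srsf9 0.0034. In culture with the trend removed, Hnrnpa2b1 was -0.058, Hnrnpk -0.011, Hnrnpl 0.016, Srsf1 -0.014, Srsf11 -0.055, Srsf4 0.072, Srsf5 -0.031 and Srsf7 -0.051. Hnrnpab was 0.0024 without a filter, and Srsf11 -0.014 with library size only. For the interaction with the trend removed, Hnrnpd was -0.53, Hnrnpf -0.24, Hnrnpk -0.31, Hnrnpll -0.14, Hnrnpu -0.49, Hnrnpul1 -0.048, Hnrnpul2 -0.088, Srsf10 -0.32 and Srsf6 -0.33. For the interaction with library size only, Hnrnpc was 0.50, Hnrnph3 0.59, Hnrnpl 0.43, Srsf3 0.64 and Srsf4 0.45. Srsf3 was 0.10 with copies summed, and Srsf9 -0.0064 with RLE and -0.0051 with DESeq2. Without 1 library, values on both sides of 0 were those in culture of Hnrnpab (-0.031 to 0.021), Hnrnpl (-0.075 to 0.014), Srsf11 (-0.010 to 0.14), Srsf6 (-0.11 to 0.023) and Srsf9 (-0.15 to 0.063). They were also those in WAT of Hnrnpul1 (-0.16 to 0.070) and Srsf9 (-0.11 to 0.041), and in the interaction of Hnrnph3 (-0.28 to 0.090), Srsf3 (-0.11 to 0.092) and Srsf9 (-0.072 to 0.15).

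Few reads limit Srsf12 in all groups and Hnrnpa3 in culture, whose libraries held 40 to 326 reads of it. Whether the annotations behind the tables differ at Hnrnpa3 was not tested.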
